A study of Mus musculus with 9 samples.

Results

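The genes described here are 33 genes of glucose metabolism and of the response to low oxygen, compared between 3 tissues of the embryonic mouse knee. They were chosen by gene symbol from a fixed list of 21 glycolysis genes and 12 hypoxia genes. The glycolysis genes are glucose carriers, the enzymes of the pathway, and the genes that control it or carry its product away. The hypoxia genes are Hif1a, which encodes an oxygen-regulated transcription factor subunit, the hydroxylases that mark it, and targets of the factor. Of the 33, 30 had a probe on the array that carried that single symbol, and 26 of these had signal above background in at least 1 tissue and were tested, among 7234 named genes tested in all. The 26 were 16 glycolysis genes and 10 hypoxia genes. Hk2, Gpi1 and Eno1 were not analysed here, because no probe carried their symbol alone. Aldoc, Pfkfb3, Adm and Bnip3 had probes that were above background on 0 of the 9 arrays, so their levels have only an upper bound and they entered no test.

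The tissues were the meniscus (3 arrays), the cruciate ligaments (3 arrays) and the articular cartilage (3 arrays) of untreated CD-1 mouse embryos at embryonic day 16, taken from the hindlimb. CD-1 is an outbred laboratory strain. The meniscus is the wedge of fibrous and cartilage-like tissue between femur and tibia, the cruciate ligaments are dense collagen bands inside the joint, and the articular cartilage covers the bone ends. The labels do not say whether the 3 samples of a tissue came from separate animals or litters, or how many embryos were pooled, so each p-value speaks for the spread among these arrays alone, and part of that spread may be technical. Total RNA was amplified before it was labelled and hybridised to Illumina bead arrays, and in such bulk samples fewer cells of a type and less RNA per cell cannot be told apart.

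Levels are given as normalized log2 intensity, on which a step of 1 is a doubling of the signal, and differences as log2 values with their standard error (SE). A call is an adjusted p under 0.05 in limma's moderated test, with Benjamini-Hochberg adjustment over all 9166 features. The ligament arrays stood apart from the others before any gene was compared. Their median scanner signal was 147.4 to 209.7, against 93.4 to 103.8 on the meniscus and cartilage arrays, and 18.0 to 20.9% of probes were above background on them, against 28.9 to 35.6%. The authors had normalized the ligament arrays as a set of their own, so set and tissue cannot be told apart in any comparison with ligament. After normalization the median named gene still differed: by 0.033 for meniscus minus cartilage, by 0.27 for meniscus minus ligament and by -0.23 for ligament minus cartilage. Differences are therefore given relative to that median gene, and the p-values belong to the uncorrected differences.

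Glycolysis splits glucose into pyruvate through a chain of cytosolic enzymes, and cells short of oxygen turn the pyruvate into lactate. Cartilage has no blood vessels of its own, and chondrocytes are known to rely on glycolysis and to need the oxygen-sensitive transcription factor HIF-1 to survive in the growth plate. HIF-1 is made of an oxygen-regulated alpha subunit, encoded by Hif1a, and a stable partner. In normal oxygen, prolyl hydroxylases of the EGLN family mark the alpha subunit for destruction through the VHL protein. In low oxygen the factor accumulates and binds hypoxia response elements, whose core reads ACGTG or GCGTG, in the promoters and enhancers of genes for glucose uptake, glycolysis, blood vessel growth and mitochondrial adaptation.

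The promoters of the genes show how commonly that core stands near their start sites. RefSeq promoters (GRCm38.p6, 250 bases before to 50 bases after the start of transcription) were at hand for 30 of the 33 genes, all but Slc2a3, Bnip3l and Ndrg1. The letters ACGTG and GCGTG were searched on both strands, so a match on the opposite strand reads CACGT or CACGC, and the palindrome CACGTG counts on both strands. At least 1 of the cores was found in 28 of 30 genes (93.3%), against 46.7% of the 27025 genes with a promoter. ACGTG was found in 23 of 30 genes (76.7%), against 21.8% of all genes, and GCGTG in 19 of 30 (63.3%), against 35.2%. The genes without a match in the window were Gpi1 and Tpi1. A match is a run of letters and not a bound site, and the list holds many genes that are known as HIF targets. The cores were present in 7 of the 8 genes that were called in a comparison and in 15 of the 15 that were tested and called in none.

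Promoters of 6 genes whose levels are described below are printed. Whether the cores play a part in the differences between tissues was not tested. Slc2a1, Fbp2, Egln3 and Higd1a were lower in ligament than in cartilage and hold a core, while Tpi1 was lower and holds none. Ldha was called in 0 comparisons. Its printed promoter holds 7 matches at 5 separate places, and a second promoter, not printed, holds 2 GCGTG matches. Each printed promoter runs 5′ to 3′ in the direction of transcription, and capitals mark the cores on either strand.
Slc2a1 (chr4:119108495-119108794, plus strand): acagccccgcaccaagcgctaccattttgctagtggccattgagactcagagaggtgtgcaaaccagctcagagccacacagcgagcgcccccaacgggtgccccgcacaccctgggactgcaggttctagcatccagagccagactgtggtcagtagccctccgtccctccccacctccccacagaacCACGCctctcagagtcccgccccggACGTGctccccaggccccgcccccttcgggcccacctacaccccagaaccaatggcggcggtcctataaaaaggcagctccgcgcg
Ldha (chr7:46845554-46845853, plus strand): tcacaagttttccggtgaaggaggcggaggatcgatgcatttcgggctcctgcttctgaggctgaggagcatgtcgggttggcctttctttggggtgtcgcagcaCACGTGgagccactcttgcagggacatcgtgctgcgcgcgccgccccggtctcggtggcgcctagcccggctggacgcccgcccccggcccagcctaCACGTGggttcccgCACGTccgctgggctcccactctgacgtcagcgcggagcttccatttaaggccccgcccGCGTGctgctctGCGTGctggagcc
Tpi1 (chr6:124814109-124814408, minus strand): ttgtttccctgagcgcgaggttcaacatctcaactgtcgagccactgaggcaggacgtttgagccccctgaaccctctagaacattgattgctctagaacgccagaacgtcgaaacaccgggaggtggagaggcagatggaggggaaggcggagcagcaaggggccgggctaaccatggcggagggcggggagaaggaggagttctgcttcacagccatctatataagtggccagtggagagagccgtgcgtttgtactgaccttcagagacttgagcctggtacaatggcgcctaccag
Fbp2 (chr13:62858351-62858650, minus strand): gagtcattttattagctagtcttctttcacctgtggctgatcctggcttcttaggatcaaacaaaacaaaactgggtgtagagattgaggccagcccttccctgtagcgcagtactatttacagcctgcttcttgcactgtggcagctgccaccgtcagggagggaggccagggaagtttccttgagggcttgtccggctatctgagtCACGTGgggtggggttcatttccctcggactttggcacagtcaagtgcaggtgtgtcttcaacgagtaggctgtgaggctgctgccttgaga
Egln3 (chr12:54203825-54204124, minus strand): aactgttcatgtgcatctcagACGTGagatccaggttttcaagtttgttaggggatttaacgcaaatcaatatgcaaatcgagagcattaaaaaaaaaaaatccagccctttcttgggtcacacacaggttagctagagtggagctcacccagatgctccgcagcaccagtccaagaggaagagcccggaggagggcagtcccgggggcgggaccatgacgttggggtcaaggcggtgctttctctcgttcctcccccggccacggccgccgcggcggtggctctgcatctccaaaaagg
Higd1a (chr9:121857747-121858046, minus strand): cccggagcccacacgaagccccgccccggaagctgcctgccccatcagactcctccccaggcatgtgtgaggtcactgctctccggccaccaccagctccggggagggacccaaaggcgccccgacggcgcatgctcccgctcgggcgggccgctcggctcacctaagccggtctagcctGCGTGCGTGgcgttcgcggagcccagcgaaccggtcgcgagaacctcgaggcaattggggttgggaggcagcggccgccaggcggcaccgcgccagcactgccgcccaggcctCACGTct

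**Figure D1:**
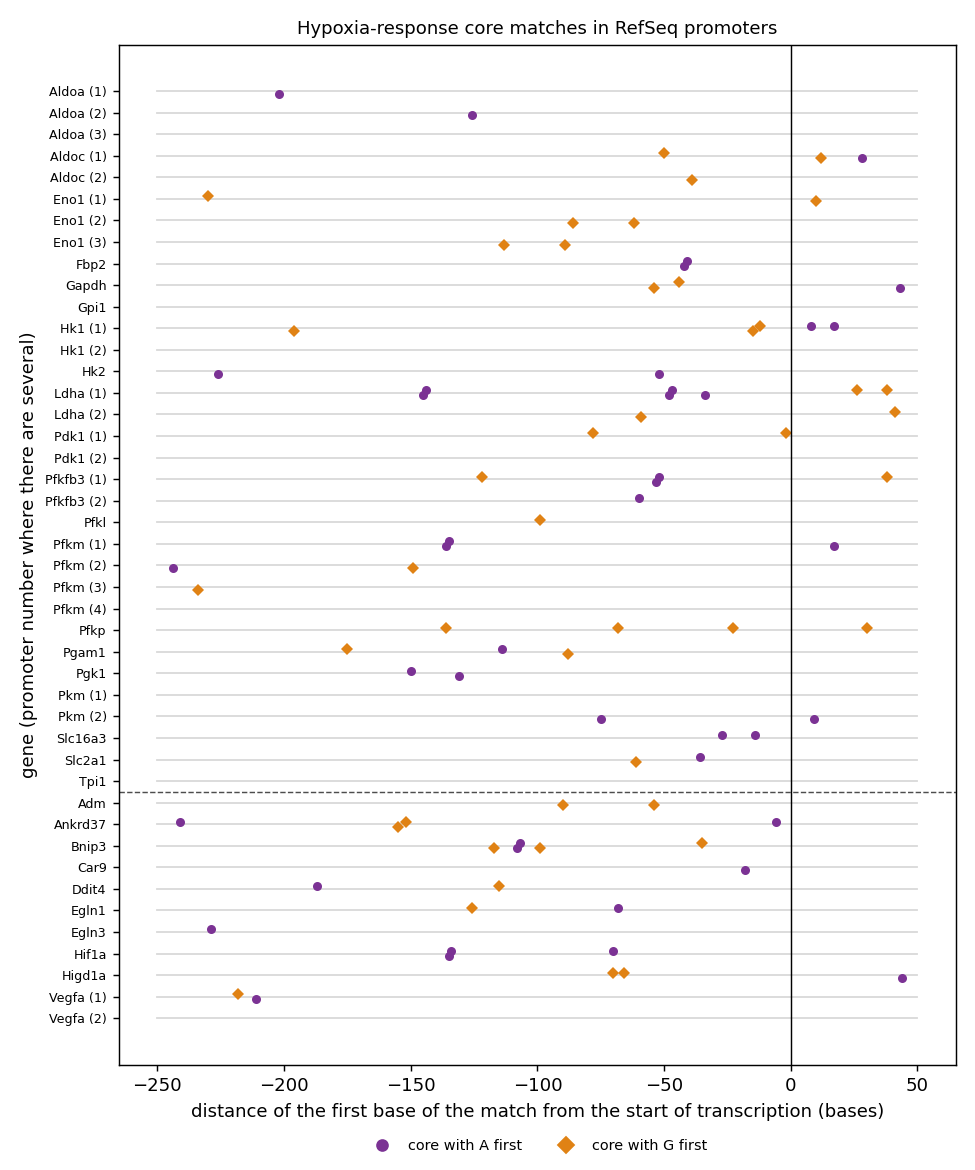
Matches of the hypoxia-response cores ACGTG (circles) and GCGTG (diamonds) in the RefSeq promoters of the genes, by distance in bases from the start of transcription (vertical line). Marks above a line are on the strand of transcription and those below it on the opposite strand; several promoters of a gene are numbered, and only Gpi1 and Tpi1 have no match in any of theirs.

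All tested genes but Ldha, Pdk1, Egln1 and Ndrg1 had their highest mean level in cartilage. The order depended on the scaling for a few of them: with cyclic loess Pfkp and Bnip3l were higher in ligament than in cartilage and Ldha was highest in cartilage, and with median scaling Ldha, Pdk1 and Ndrg1 were highest in cartilage too. Between meniscus and cartilage, 0 of the 26 genes were called by limma in either direction, beside 0.415% of all named genes called higher in meniscus and 0.346% called lower. At an unadjusted limma p under 0.05, 9 of the 26 were lower in meniscus and 0 were higher. The share of all named genes at that threshold was not counted, so these counts do not set the list apart. All 16 tested glycolysis genes had a negative difference, with a median of -0.52 relative to the median gene, and 9 of 10 hypoxia genes did, with a median of -0.45. In 13 of the 26 genes every meniscus array lay below every cartilage array (9 glycolysis and 4 hypoxia genes), which held for 11.3% of all named genes. Slc2a3, Pfkp, Fbp2, Egln1 and Egln3 entered the test through cartilage alone, the tissue in which most of them are highest, so these counts and medians describe the tested genes. Over the 16 genes above background on all 9 arrays, the median for meniscus minus cartilage was -0.47 and that for ligament minus cartilage -0.41. Of these, 4 were called lower in ligament, and the share of all such genes was not counted in that fit. With only probes above background on all 9 arrays in the fit, 8 genes of the list were called lower in ligament than in cartilage and 0 higher. Of all named genes in that fit, 9.64% were called lower and 8.22% higher.

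Between ligament and cartilage, 8 of the 26 genes fell and 0 rose in ligament. Of all named genes, 11.3% were called lower and 3.84% higher. At an unadjusted limma p under 0.05, 16 of the 26 were lower and 0 higher, a threshold at which all named genes were not counted. The genes called lower were Slc2a1, Hk1, Tpi1, Fbp2 and Slc16a3 of glycolysis and Egln3, Vegfa and Higd1a of the hypoxia genes. Hk1 was above background on 0 ligament arrays, and its bound there allows no difference. The median difference relative to the median gene was -0.44 over the glycolysis genes and -0.72 over the hypoxia genes, or -0.43 over the hypoxia genes with Egln3 at its bound. In 18 of the 26 genes every ligament array lay below every cartilage array, which held for 24.1% of all named genes. The split of all called genes in this comparison depended on the scaling: 278 were higher and 820 lower in ligament with quantile normalization, 404 and 481 with cyclic loess, and 118 and 2275 with median scaling. The number of genes of the list called lower was 5 with cyclic loess, beside 6.65% of all named genes, and 20 with median scaling, beside 31.4%.

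Between meniscus and ligament, Slc2a1, Hk1 and Higd1a were called higher in meniscus and 0 of the 26 were called lower. Of all named genes, 9.32% were called higher and 2.63% lower. At an unadjusted limma p under 0.05, 6 of the 26 were higher and 1, Egln1, was lower. All named genes were again not counted at that threshold. The bound of Hk1 allows no difference here too. The medians lay near 0 relative to the median gene, at -0.030 for glycolysis and -0.12 for hypoxia. In 9 of the 26 genes every meniscus array lay above every ligament array, which held for 23.7% of all named genes. This comparison uses the same ligament arrays as the one before it, so the 3 genes called in both are not independent findings. A moderated F test for any difference among the 3 tissues called 7 of the 26 genes, beside 14.7% of all named genes: Slc2a1, Hk1, Tpi1, Fbp2, Egln3, Vegfa and Higd1a.

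**Figure D2:**
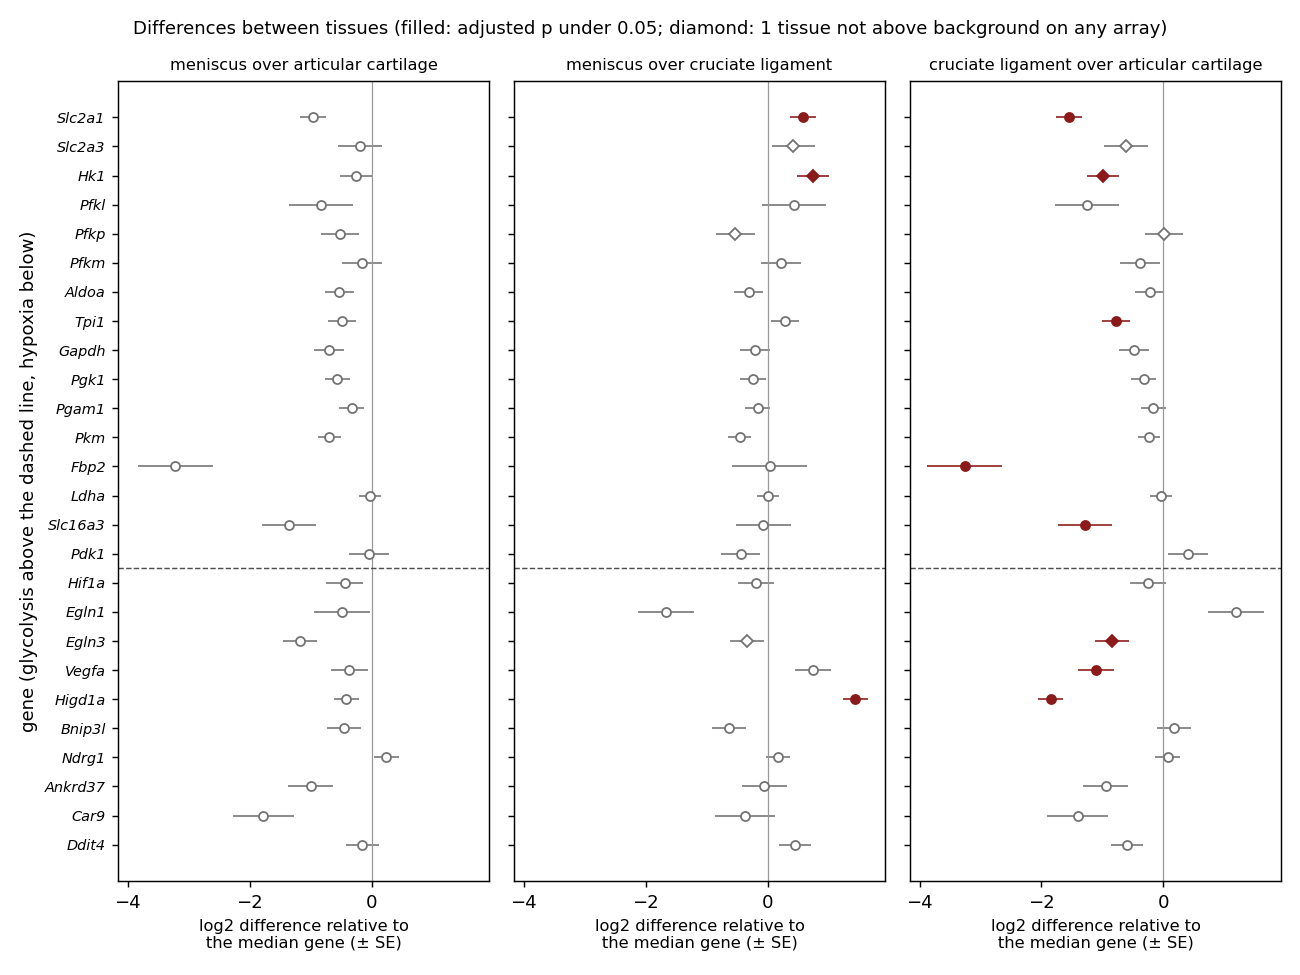
Differences between tissues for the 26 tested genes, as log2 difference relative to the median named gene with its SE, in 3 panels by comparison. Filled marks are calls (adjusted p under 0.05), and diamonds are genes that were above background on 0 arrays of 1 of the tissues, whose position is a fitted value and not a fold; nearly all marks in the left panel lie left of 0, and Fbp2 lies farthest left in the left and right panels.

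Markers of other cell types differed between the same tissues. The summed linear intensity of 11 cartilage markers was 4596 to 6265 in meniscus, 3543 to 7196 in ligament and 16315 to 23739 in cartilage. Of the 11, 8 were above background on all 3 meniscus arrays, 5 on all 3 ligament arrays and 10 on all 3 cartilage arrays, while Col11a2, Matn3 and Snorc were at background on all meniscus and ligament arrays. The 6 erythroid markers on the array, which mark red blood cells and their precursors, summed to 2319 to 2846 in meniscus, 3575 to 5059 in ligament and 1160 to 1893 in cartilage. The 10 endothelial markers of blood vessel lining summed to 473 to 928 in meniscus, 490 to 743 in ligament and 354 to 379 in cartilage, with 8 of the 10 above background on all 3 meniscus arrays, 1 on all 3 ligament arrays (Emcn) and 1 on all 3 cartilage arrays (Ramp2). Cdh5, Kdr, Tie1 and Cldn5 were above background on 0 ligament and 0 cartilage arrays, and Emcn, Esam, Tek, Pecam1 and Egfl7 on 1 to 3 arrays of each of these tissues. The 11 macrophage markers summed to 566 to 1146 in meniscus, 475 to 1830 in ligament and 302 to 346 in cartilage. The 10 fibrous tissue markers summed to 10300 to 12071 in meniscus, 9926 to 10035 in ligament and 7125 to 8732 in cartilage, with 8, 8 and 7 of them above background on all 3 arrays. Of the 8 tested, 5 were called higher in ligament than in cartilage and 0 lower, beside 3.84% and 11.3% of all named genes. Mkx, a tendon transcription factor, averaged 9.83 in ligament and 8.07 in cartilage. The 2 with a lower mean in ligament than in cartilage were Tnc (10.23 and 10.78) and Col3a1 (11.70 and 11.74). The ligament and tendon gene Tnmd was at background on all 9 arrays and Scx on all but 1 ligament array. The 8 pericyte and smooth muscle markers summed to 1016 to 1194 in meniscus, 1346 to 1525 in ligament and 845 to 902 in cartilage, and 0 of the 5 growth plate markers on the array were above background on all 3 arrays of any tissue. The markers' part in the results on the glycolysis and hypoxia genes was not tested.

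Glucose enters these cells through carriers of the SLC2A family. Slc2a1, which encodes GLUT1, the carrier most cells use for basal uptake, had levels of 8.93, 8.37 and 8.82 in meniscus, 7.781, 7.998 and 7.805 in ligament and 9.72, 9.60 and 9.59 in cartilage. The 3 tissues did not overlap, with cartilage highest, meniscus between and ligament lowest. Relative to the median gene, Slc2a1 fell by 1.54 ± 0.21 (SE) in ligament against cartilage, a 2.92-fold lower signal (limma adjusted p = 0.00232), and this call held under all 19 alternatives run. It was 0.58 ± 0.21 higher in meniscus than in ligament (limma adjusted p = 0.0332), a call that was lost when any of 5 arrays was left out (meniscus 1 and 3, cartilage 2 and 3, ligament 3) and with cyclic loess, both tissues fitted alone, array weights or the replicate block, and that held under 10 of 19 alternatives, with adjusted p up to 0.116. The difference of -0.96 ± 0.21 between meniscus and cartilage was not called (limma adjusted p = 0.0937), but was called under 6 of 21 alternatives, with adjusted p between 0.0119 and 0.336.

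Slc2a3 encodes GLUT3, a carrier of high affinity known best from neurons. Its levels were 5.16, 5.20 and 5.77 in meniscus, 4.45, 5.15 and 4.44 in ligament and 6.25, 5.24 and 5.11 in cartilage. It was above background on 0 ligament arrays, and the meniscus and cartilage arrays overlapped. It was called in 0 comparisons, with limma adjusted p of 0.927 for meniscus against cartilage, 0.227 for meniscus against ligament and 0.133 for ligament against cartilage.

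The first steps of the pathway trap glucose and commit it. Hk1, the hexokinase that phosphorylates glucose in most tissues, had levels of 5.30, 5.84 and 5.87 in meniscus, 4.78, 4.78 and 4.42 in ligament and 6.15, 5.50 and 6.02 in cartilage. All ligament arrays lay below the rest, and Hk1 was above background on 0 of them, so no fold is given. Its means in meniscus and cartilage, 5.67 and 5.89, did not exceed the mean of the lowest signals above background on the ligament arrays. Its bound therefore allows no difference in either comparison with ligament. Hk1 was called higher in meniscus (limma adjusted p = 0.0360) and in cartilage (limma adjusted p = 0.0157) than in ligament. The first call was lost when any of 4 arrays was left out (meniscus 2 and 3, cartilage 3, ligament 3) and under 6 other settings (cyclic loess, offset 50, no background correction, both tissues fitted alone, array weights, replicate block). It held under 8 of 18 alternatives, with adjusted p up to 0.213. The second was lost without cartilage 1 or 3, with cyclic loess and with array weights, with adjusted p up to 0.0785.

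The 3 phosphofructokinase subunits, which form the enzyme of the committed step, were called in 0 comparisons. Pfkl, the liver-type subunit, had levels of 7.36, 6.68 and 6.38 in meniscus, 6.26, 4.85 and 7.23 in ligament and 7.72, 7.47 and 7.61 in cartilage. Cartilage lay above both other tissues, but the ligament arrays spread over more than 2 log2 units, and the difference of -1.26 ± 0.52 between ligament and cartilage had an adjusted p of 0.0834 (limma). Pfkp, the platelet-type subunit, averaged 5.34 ± 0.56 in meniscus, 5.60 ± 0.36 in ligament and 5.83 ± 0.20 in cartilage, and Pfkm, the muscle-type subunit, 5.67 ± 0.30, 5.18 ± 0.65 and 5.80 ± 0.14 in the same tissues (SD, n = 3 each). Their tissues overlapped in all comparisons, and Pfkp was above background on 0 ligament arrays.

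Aldoa, the aldolase that splits fructose bisphosphate, had levels of 8.53, 8.17 and 7.81 in meniscus, 7.95, 8.31 and 8.38 in ligament and 8.67, 8.62 and 8.71 in cartilage. Cartilage lay above all other arrays by a narrow margin, and the relative differences of -0.53 ± 0.24 in meniscus and -0.22 ± 0.24 in ligament were not called (limma adjusted p = 0.492 and 0.219). Tpi1, the isomerase that makes both products of the split usable, had levels of 10.57, 10.36 and 10.52 in meniscus, 9.89, 9.56 and 10.32 in ligament and 11.05, 10.89 and 10.88 in cartilage. The tissues did not overlap, in the same order as for Slc2a1. Tpi1 fell by 0.78 ± 0.23 in ligament against cartilage (limma adjusted p = 0.0206), a 1.72-fold lower signal, and the call was lost when any of the 3 cartilage arrays was left out and with both tissues fitted alone (adjusted p up to 0.0676 over 19 alternatives). A second probe for Tpi1 gave -1.12 in the same comparison.

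**Figure D3:**
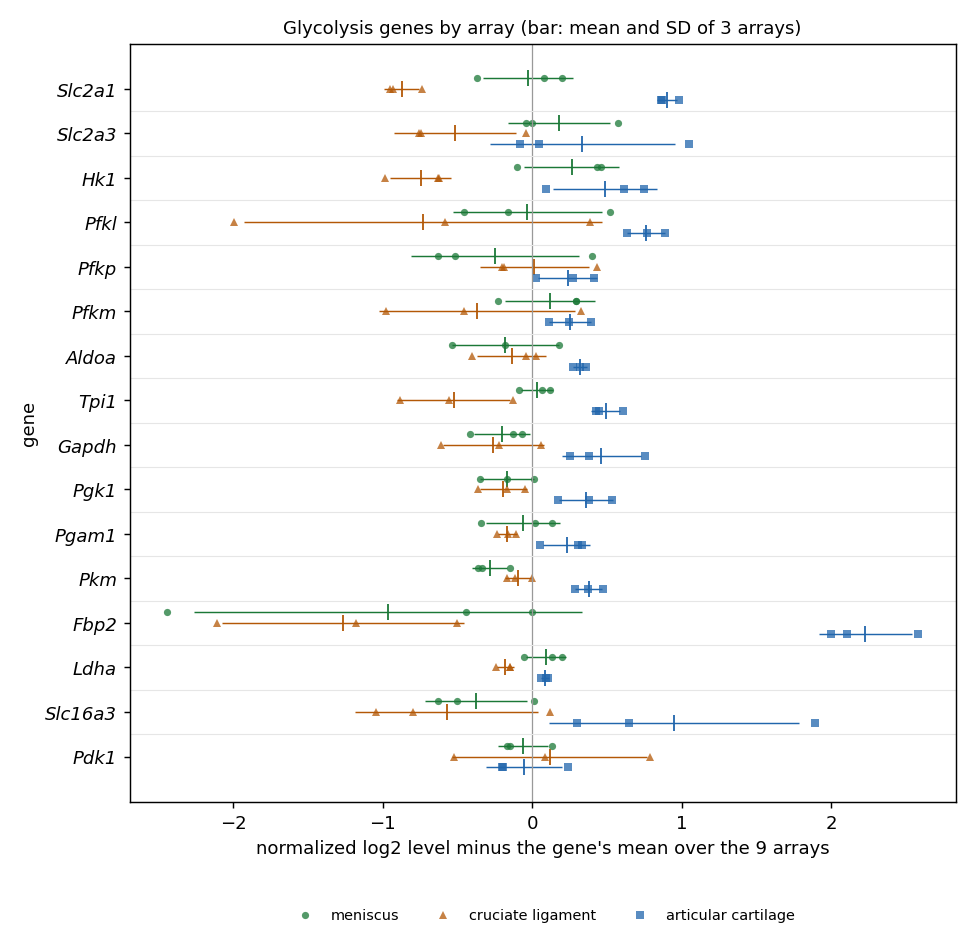
Normalized log2 level of each tested glycolysis gene on each array, minus the gene's mean over the 9 arrays, in the order of the pathway from glucose uptake (top) to pyruvate use. Points are arrays and bars the mean with SD of 3 arrays of meniscus, ligament and cartilage; the cartilage arrays lie farthest right for most genes and the spread is widest for Fbp2, while the arrays lie close together for Ldha.

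The payoff steps, which make ATP, were also highest in cartilage and were called in 0 comparisons. Gapdh, the dehydrogenase often used as a reference gene, had levels of 8.94, 8.59 and 8.88 in meniscus, 8.39, 9.06 and 8.78 in ligament and 9.76, 9.38 and 9.25 in cartilage. Every cartilage array lay above every other array, with relative differences of -0.70 ± 0.25 in meniscus (limma adjusted p = 0.342) and -0.49 ± 0.25 in ligament (limma adjusted p = 0.0770). Pgk1, the kinase that makes the first ATP, had levels of 9.19, 9.01 and 8.83 in meniscus, 9.005, 8.813 and 9.123 in ligament and 9.56, 9.71 and 9.35 in cartilage. Cartilage again lay above all other arrays, with differences of -0.56 ± 0.21 in meniscus and -0.32 ± 0.21 in ligament relative to the median gene (limma adjusted p = 0.372 and 0.0982). The second Pgk1 probe gave larger differences of -1.06 and -1.54.

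Pkm encodes pyruvate kinase, which makes the last ATP of the pathway. It had levels of 8.62, 8.44 and 8.40 in meniscus, 8.60, 8.66 and 8.77 in ligament and 9.24, 9.06 and 9.14 in cartilage, with cartilage above all other arrays. The difference of -0.69 ± 0.18 between meniscus and cartilage was not called (limma adjusted p = 0.175) but was called with the authors' values and with array weights, and the range over 21 alternatives was 0.0234 to 0.484. Its second probe gave -1.49 between meniscus and cartilage. Pgam1, the mutase of the step before enolase, averaged 9.36 ± 0.25 in meniscus, 9.25 ± 0.064 in ligament and 9.65 ± 0.16 in cartilage (SD, n = 3 each), and its meniscus and cartilage arrays overlapped.

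At the exit from glycolysis the genes differed among themselves. Ldha, the lactate dehydrogenase subunit that turns pyruvate into lactate, had levels of 9.94, 9.87 and 9.68 in meniscus, 9.59, 9.59 and 9.49 in ligament and 9.79, 9.84 and 9.83 in cartilage. The meniscus and cartilage arrays overlapped, and every ligament array lay below both. The uncorrected differences were 0.27 for meniscus minus ligament and -0.27 for ligament minus cartilage. Relative to the median gene, Ldha differed by -0.026 ± 0.18 for meniscus minus cartilage, by 0.0078 ± 0.18 for meniscus minus ligament and by -0.033 ± 0.18 for ligament minus cartilage (limma adjusted p = 0.995, 0.351 and 0.348). It was called in 0 of these, and under median scaling it was called lower in ligament than in cartilage (limma adjusted p = 0.0388, against up to 0.517 over 19 alternatives).

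Slc16a3 encodes MCT4, the carrier that exports lactate from glycolytic cells. Its levels were 5.84, 5.20 and 5.32 in meniscus, 5.04, 5.95 and 4.79 in ligament and 7.72, 6.48 and 6.13 in cartilage. Every cartilage array lay above the rest, and 1 of 3 ligament arrays measured the gene above background. Slc16a3 fell by 1.29 ± 0.45 in ligament against cartilage (limma adjusted p = 0.0487), at the edge of the threshold: the call was lost when any 1 array other than ligament 2 was left out and under 7 other settings, with adjusted p between 0.00587 and 0.167 over 18 alternatives. Pdk1, the kinase that holds pyruvate back from the mitochondria, averaged 5.68 ± 0.17 in meniscus, 5.85 ± 0.65 in ligament and 5.68 ± 0.25 in cartilage (SD, n = 3 each), with overlap in all 3 comparisons. Its second probe gave -0.57 for meniscus minus cartilage, where the probe used gave -0.041, and 0.023 for ligament minus cartilage, where the probe used gave 0.40; before the correction for the median gene, cartilage was highest on the second probe.

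Fbp2 encodes the muscle isozyme of fructose bisphosphatase, which catalyses the reverse of the phosphofructokinase step, so it acts in glucose synthesis and stands in the glycolysis list as the opposing enzyme. Without it, 4 of 15 genes of that list fell in ligament against cartilage, with a median of -0.39, and the median for meniscus against cartilage was still -0.52. Its levels were 7.21, 4.77 and 6.77 in meniscus, 5.10, 6.71 and 6.04 in ligament and 9.79, 9.32 and 9.21 in cartilage. The cartilage arrays lay far above every other array, while meniscus and ligament overlapped. Fbp2 fell by 3.26 ± 0.62 in ligament against cartilage relative to the median gene (limma adjusted p = 0.00773), and the call held under all 18 alternatives. The difference of -3.22 ± 0.62 between meniscus and cartilage just missed the threshold (limma adjusted p = 0.0559) and was called under 9 of 20 alternatives, with adjusted p between 0.00218 and 0.226. Fbp2 was above background on 2 of 3 meniscus and 1 of 3 ligament arrays and entered the test through cartilage alone, so these differences rest partly on signal near background and no fold is given. Of the 11 skeletal muscle markers on the array, 4 were above background on all 3 meniscus arrays (Mylpf, Myl1, Tnni2 and Des), 1 on all 3 ligament arrays (Tnni2) and 2 on all 3 cartilage arrays (Tnni2 and Des), while Acta1, Ckm and Tnnt3 were above background on 0 of the 9 arrays. The list summed to 1234 to 1617 in meniscus, 602 to 1364 in ligament and 986 to 1418 in cartilage, and its part in the Fbp2 result was not tested.

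By array, the 16 glycolysis genes had median deviations from their own means of 0.069, -0.17 and -0.28 on the meniscus arrays, -0.51, -0.17 and -0.19 on the ligament arrays and 0.54, 0.30 and 0.35 on the cartilage arrays. All cartilage arrays lay above all others, in values not corrected for the median gene. Over the 8 glycolysis genes that were above background on all 9 arrays, the medians were 0.069, -0.17 and -0.23 in meniscus, -0.32, -0.13 and -0.15 in ligament and 0.43, 0.34 and 0.35 in cartilage. The order of the cartilage arrays against the others was the same in this subset.

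The hypoxia genes begin with the transcription factor. Hif1a, the oxygen-regulated subunit, had levels of 7.72, 7.45 and 7.96 in meniscus, 7.946, 7.965 and 7.0002 in ligament and 7.88, 8.20 and 8.28 in cartilage. The tissues overlapped, and the limma adjusted p was 0.704 for meniscus against cartilage and 0.297 for ligament against cartilage. Its probes did not give the same sign for ligament against cartilage, with -0.25 for the probe used and 0.45 for the second. The subunit is regulated mainly as a protein, which these arrays do not measure.

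The hydroxylases that restrain the factor come next. Egln1, which encodes PHD2, the main hydroxylase in normal oxygen, had levels of 5.22, 5.27 and 4.90 in meniscus, 5.35, 7.26 and 6.98 in ligament and 6.01, 5.45 and 5.27 in cartilage. Every meniscus array lay below every ligament array, and ligament 1 lay well below the other two ligament arrays. The difference between meniscus and ligament was -1.66 ± 0.46 (limma adjusted p = 0.0767) and that between ligament and cartilage 1.18 ± 0.46 (limma adjusted p = 0.185). Without ligament 1 both were called (limma adjusted p = 0.00445 and 0.00958, against up to 0.200 and 0.394 over 18 alternatives each). Its 3 probes agreed in sign, with -1.26 to -1.66 between meniscus and ligament. Egln1 was above background on 2 of 3 meniscus and 2 of 3 ligament arrays.

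Egln3 encodes PHD3, a hydroxylase whose own gene is a strong HIF target. Its levels were 5.32, 5.45 and 4.85 in meniscus, 5.17, 5.77 and 4.89 in ligament and 6.26, 6.57 and 6.21 in cartilage. Every cartilage array lay above the rest. Egln3 was above background on 2 of 3 meniscus arrays and 0 ligament arrays, so it entered the test through cartilage alone. It was at least 1.17-fold lower in ligament than in cartilage relative to the median gene, and at least 1.37-fold lower without that correction (limma adjusted p = 0.0325). That call was lost when any of 6 arrays was left out (meniscus 1, cartilage 1, 2 and 3, ligament 1 and 3) and under 5 other settings, with adjusted p between 0.00646 and 0.116 over 18 alternatives. The difference of -1.17 ± 0.28 between meniscus and cartilage was not called (limma adjusted p = 0.121).

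Among the targets, Higd1a differed most clearly. It encodes a small protein of the inner mitochondrial membrane that is induced in low oxygen. Its levels were 9.10, 8.57 and 8.72 in meniscus, 7.10, 7.17 and 7.01 in ligament and 9.23, 9.23 and 9.07 in cartilage. Ligament lay more than 1 log2 unit below all other arrays, and meniscus and cartilage overlapped. Higd1a was 1.44 ± 0.21 higher in meniscus than in ligament, a 2.71-fold higher signal (limma adjusted p = 0.00255), and fell by 1.85 ± 0.21 in ligament against cartilage, a 3.60-fold lower signal (limma adjusted p = 0.00128). Both calls held under all 19 alternatives run for each. Between meniscus and cartilage the difference was -0.41 ± 0.21 (limma adjusted p = 0.572).

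Vegfa, the growth factor that draws in blood vessels, had levels of 7.60, 7.38 and 7.62 in meniscus, 6.74, 6.08 and 6.76 in ligament and 7.44, 7.75 and 8.41 in cartilage. Ligament again lay below all other arrays, and meniscus and cartilage overlapped. Vegfa fell by 1.10 ± 0.30 in ligament against cartilage, a 2.15-fold lower signal (limma adjusted p = 0.0191), a call lost without cartilage 2 or cartilage 3 and with both tissues fitted alone (adjusted p up to 0.0639 over all alternatives). It was 0.74 ± 0.30 higher in meniscus than in ligament, which just missed the threshold (limma adjusted p = 0.0553).

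**Figure D4:**
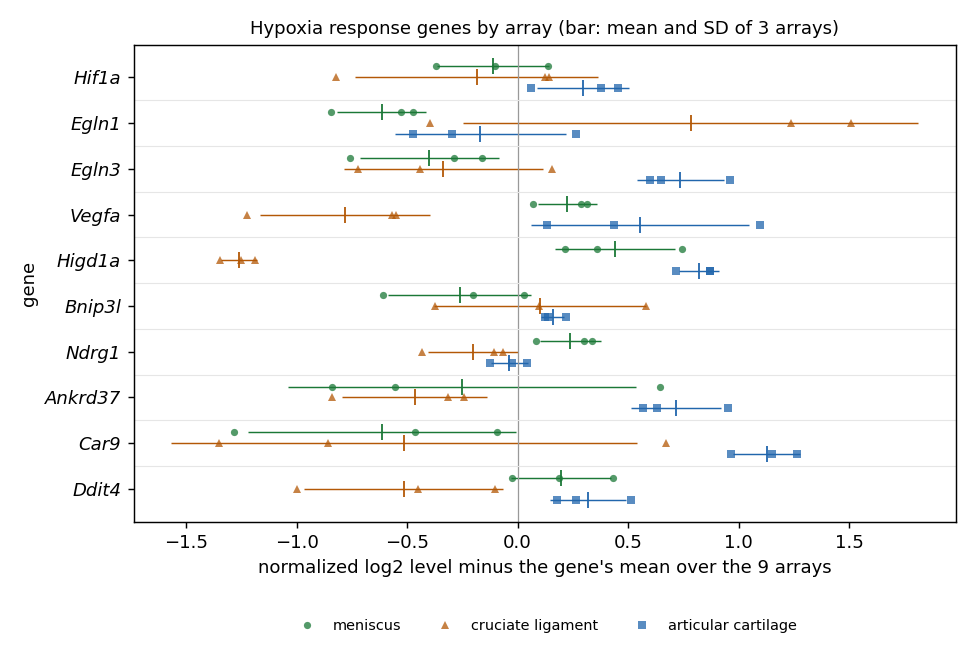
Normalized log2 level of each tested hypoxia gene on each array, minus the gene's mean over the 9 arrays. Hif1a, Egln1 and Egln3 stand above and targets below. Points are arrays and bars the mean with SD of 3 arrays of meniscus, ligament and cartilage; the ligament arrays of Higd1a lie apart on the left, those of Egln1 reach farthest right, and the cartilage arrays of Car9, Ankrd37 and Egln3 lie right of nearly all others.

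Car9, the carbonic anhydrase of the cell surface that is widely used as a marker of hypoxia, had levels of 8.16, 6.97 and 7.79 in meniscus, 8.92, 7.39 and 6.90 in ligament and 9.52, 9.40 and 9.22 in cartilage. Cartilage lay above all other arrays, but the meniscus and ligament arrays spread widely. The differences were -1.77 ± 0.50 between meniscus and cartilage (limma adjusted p = 0.183) and -1.41 ± 0.50 between ligament and cartilage (limma adjusted p = 0.0523). Ankrd37, an ankyrin repeat protein induced by hypoxia, had levels of 7.73, 6.25 and 6.53 in meniscus, 6.85, 6.25 and 6.77 in ligament and 8.04, 7.72 and 7.66 in cartilage. Meniscus 1 reached the cartilage range while the other meniscus arrays did not, and the difference of -0.95 ± 0.37 between ligament and cartilage had an adjusted p of 0.0603 (limma).

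The other targets differed less or the other way. Ddit4, which restrains the growth kinase mTORC1 under stress, had levels of 9.67, 9.43 and 9.22 in meniscus, 8.24, 8.79 and 9.14 in ligament and 9.42, 9.50 and 9.75 in cartilage. Ligament lay below all other arrays, and the differences from it were 0.45 ± 0.27 in meniscus (limma adjusted p = 0.108) and -0.60 ± 0.27 against cartilage (limma adjusted p = 0.0622). Bnip3l, which marks mitochondria for removal and has an established role in red blood cell maturation, averaged 8.04 ± 0.32 in meniscus, 8.41 ± 0.48 in ligament and 8.47 ± 0.052 in cartilage (SD, n = 3 each), and was called in 0 comparisons. Ndrg1, a stress-induced gene, had levels of 7.46, 7.42 and 7.21 in meniscus, 7.02, 7.06 and 6.69 in ligament and 7.166, 6.999 and 7.097 in cartilage. It was the 1 gene of the 26 whose meniscus arrays all lay above the cartilage arrays, by 0.24 ± 0.20 (limma adjusted p = 0.702), and its second probe gave 0.27; with median scaling its meniscus mean was the lower.

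By array, the 10 hypoxia genes had median deviations of 0.097, -0.18 and 0.0021 in meniscus, -0.32, -0.26 and -0.49 in ligament and 0.22, 0.41 and 0.54 in cartilage. These medians are not corrected for the median gene, which was 0.27 higher in meniscus than in ligament. Without that correction the 3 tissues did not overlap, though meniscus 2 at -0.18 lay near ligament 2 at -0.26. Relative to the median gene, the median difference of meniscus minus ligament over these genes was -0.12. Over the 8 hypoxia genes that were above background on all 9 arrays, the medians were 0.31, -0.065 and 0.055 in meniscus, -0.17, -0.65 and -0.49 in ligament and 0.15, 0.41 and 0.54 in cartilage, so that meniscus 1 passed cartilage 1.

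The comparison of meniscus with cartilage can be made without the ligament arrays, within the set that the authors normalized together. With the 6 arrays normalized and fitted alone, 3 genes of the list were called lower in meniscus, beside 1.60% of all named genes. Relative to the median gene, Fbp2 fell by 3.26 ± 0.60 (limma adjusted p = 0.0328), Car9 fell by 1.76 ± 0.30 (limma adjusted p = 0.0267) and Egln3 fell by 1.27 ± 0.24 (limma adjusted p = 0.0350). Fbp2 and Egln3 were above background on 2 of 3 meniscus arrays and entered this fit through cartilage alone, the tissue in which they are highest. Their calls are therefore favoured by the filter, while Car9 was above background on all 3 arrays of both tissues. Over all alternatives of this comparison the adjusted p of Car9 reached 0.559 and that of Egln3 0.398. The sizes were close to those from all 9 arrays, and the SE of Car9 was 0.30 against 0.50. Slc2a1 and Pkm had adjusted p of 0.0552 and 0.0858 in that fit (limma).

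Genes of the same pathways outside the list were given the same tests. Of 32 further glycolysis genes, 27 were on the array and 10 were tested: 0 were called between meniscus and cartilage, 1 was higher in meniscus than in ligament, and 3 were lower in ligament than in cartilage, where 9.32% and 11.3% of all named genes were called in these directions. The medians relative to the median gene were -0.28 for meniscus minus cartilage, 0.059 for meniscus minus ligament and 0.11 for ligament minus cartilage. The second was -0.17 with Eno2 and Pygl at their bounds and Eno3, which had no bound that showed a difference, at its fitted value. The last had 6 positive and 4 negative differences and was opposite in sign to the -0.44 of the 16 genes above. Eno2, the neuronal enolase, had levels of 6.11, 6.21 and 5.85 in meniscus, 4.70, 5.08 and 4.45 in ligament and 6.80, 6.17 and 6.94 in cartilage. It was above background on 0 ligament arrays and was at least 1.43-fold lower in ligament than in cartilage relative to the median gene (limma adjusted p = 0.00373). It was also called higher in meniscus than in ligament (limma adjusted p = 0.0160). There its bound was at least 1.12-fold without the correction, and relative to the median gene the bound allows no difference. Pgm1, which links glycogen to glycolysis, fell by 1.14 ± 0.28 in ligament against cartilage (limma adjusted p = 0.0130), and Pdk3, a further pyruvate dehydrogenase kinase, by 0.54 ± 0.23 (limma adjusted p = 0.0480).

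Of 37 further hypoxia genes, 35 were on the array and 27 were tested: 0 were called between meniscus and cartilage, 4 were higher in meniscus than in ligament, and 8 were lower in ligament than in cartilage, again beside 9.32% and 11.3% of all named genes. The medians relative to the median gene were -0.30, 0.21 and -0.74 in these comparisons. They were 0.18 for meniscus minus ligament with Epas1 at its bound and -0.57 for ligament minus cartilage with Car12 at its bound. The other genes above background on 0 ligament arrays had no bound that showed a difference there, and kept their fitted values. Stc1, a secreted glycoprotein induced by hypoxia, had levels of 10.22, 10.50 and 9.88 in meniscus, 8.20, 8.76 and 7.52 in ligament and 9.56, 9.82 and 10.25 in cartilage. Meniscus and cartilage overlapped above ligament, and Stc1 was 1.77 ± 0.34 higher in meniscus than in ligament (limma adjusted p = 0.00814). Errfi1, an inhibitor of EGF receptor signalling, was 1.78 ± 0.35 higher (limma adjusted p = 0.00868), Vhl, the factor that removes hydroxylated HIF alpha subunits, 1.00 ± 0.24 higher (limma adjusted p = 0.0112), and Ppp1r3c, which promotes glycogen storage, 0.96 ± 0.29 higher (limma adjusted p = 0.0261).

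In ligament against cartilage, P4ha2, a subunit of the collagen prolyl hydroxylase, fell by 1.67 ± 0.31 (limma adjusted p = 0.00584). Its levels were 8.62, 8.82 and 8.26 in meniscus, 7.99, 6.78 and 7.63 in ligament and 9.38, 9.46 and 9.27 in cartilage, with no overlap between the tissues. Stc1 fell by 1.49 ± 0.34, Stc2 by 1.32 ± 0.43, Ppp1r3c by 1.18 ± 0.29 and Errfi1 by 1.13 ± 0.35 in the same comparison (limma adjusted p = 0.0124, 0.0397, 0.0138 and 0.0305). Car12, a carbonic anhydrase related to Car9, was above background on 0 ligament arrays and was at least 1.48-fold lower there (limma adjusted p = 0.0186). The remaining genes called were Fam162a and Mif. The same ligament arrays stand in both comparisons, and the same cartilage arrays in both comparisons with cartilage.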

How the data were processed

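RNA of 3 tissues was measured on 9 Illumina bead arrays, 3 per tissue. The deposited scanner table holds a signal intensity on a linear scale, not normalized, and a detection p-value per probe and array, per the file headers. Per the submitters' processing notes the software was GenomeStudio, its version being not given in these sources. A second deposited table holds intensity that the authors normalized separately within the 6 meniscus and cartilage arrays and the 3 ligament arrays. The scanner rows carry no probe names, so each of the 45281 rows was paired with a named probe of that table through its ranks over the arrays, and pairing without any 1 array gave the same partner for 100% of rows. Gene names come from the platform annotation: 34885 probes had 1 gene symbol, 18 several and 10378 none.

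With limma 3.58.1 in R 4.3.3, intensity was background-corrected by normexp from the detection p-values (offset 16), quantile normalized and put on the log2 scale (neqc). Probes entered the fit with a detection p under 0.01 on all 3 arrays of at least 1 tissue (12538 probes), and the kept probe with the highest mean over the 9 arrays stood for its gene. One linear model with 3 tissue means and moderated tests (lmFit, eBayes) was fitted to 9166 features, 7234 of them named genes and 1932 probes without a symbol. "Above background" means a detection p under 0.01, and "called" an adjusted p under 0.05. A bound ("at least") sets the brighter tissue against the higher of the dim probe's own signal and the lowest signal above background. The number of arrays limits the precision. The procedure was tested on simulated data. The genes and lists were chosen with earlier results of these data known, and no test over a list was made. Named beside the list are the genes called in 2 further lists, at most the 6 largest per comparison with values. Alternatives covered normalization, background, filter, probe choice, samples in the fit, the authors' values, array weights, the replicate number as a block, and each array left out in turn. Promoters and their build, GRCm38.p6, come from RefSeq.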

Additional observations from a re-analysis of the deposited data

How the results depend on the processing

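Alternatives were run for normalization, background, filter, probe choice and samples, 12 beside leaving out each of the 9 arrays in turn. Of 1504 values of single genes under them, 1376 kept their side of the threshold, 56 lost a call and 72 gained one; of the 1376, 1329 kept their sign and 47, called in neither setting, changed it, while 0 called values did. Slc2a1, Fbp2 and Higd1a for ligament against cartilage, and Higd1a for meniscus against ligament, were called under every alternative that gave a value (with probes detected on all 9 arrays, Fbp2 had none). For meniscus against cartilage, the number of genes called lower was 0 as reported, 0 with cyclic loess and without a filter, 1 with probes detected on all 9 arrays and with the mean of kept probes, 2 with median scaling, offset 50 and no background correction, 3 with both tissues fitted or normalized alone, and 5 with the authors' values and with array weights. The calls over all named genes moved with them, with 1.05% lower under median scaling, 1.56% with both tissues fitted alone, 2.12% with the authors' values and 2.89% with array weights, against 0.346%. Without 1 array it was 0 to 2, the 2 being Fbp2 and Car9 without ligament 1. For meniscus against ligament, the number called higher was 3 as reported and 1 with cyclic loess, with both tissues alone and with array weights (1 to 3 without 1 array, the 1 without meniscus 3), beside 4.71%, 3.90% and 5.20% of all named genes, and the number called lower was 1, Egln1, with cyclic loess, with array weights and without ligament 1 (0 to 1 without 1 array). For ligament against cartilage, the number called lower was 8 as reported, 5 with cyclic loess, both tissues alone and array weights (6.65%, 5.16% and 7.13% of all named genes), and 20 with median scaling (31.4%); it was 4, 4 and 3 without cartilage 1, 2 and 3, in a range of 3 to 10 without 1 array, and the number called higher was 0 to 1, the 1 being Egln1 without ligament 1. The F test called 7 as reported, 4 with cyclic loess, 16 with median scaling and 3 to 8 without 1 array, with 3 without meniscus 2, meniscus 3 or cartilage 3 and 4 without cartilage 1 or 2. Median scaling moved the median named gene to -0.26, 0.40 and -0.64 in the 3 comparisons. The median relative differences were steady in sign against cartilage: without 1 array, -0.69 to -0.43 (glycolysis) and -0.49 to -0.39 (hypoxia) in meniscus, and -0.61 to -0.30 and -0.74 to -0.60 in ligament, with -0.62 for glycolysis without a filter and, for hypoxia, -0.57 with offset 50, -0.44 without background correction and -0.99 with probes detected on all 9 arrays. Those of meniscus against ligament changed sign between settings: -0.23 to 0.032 (glycolysis) and -0.29 to 0.14 (hypoxia) without 1 array, 0.17 and 0.055 without a filter, and 0.25 for hypoxia with probes detected on all 9 arrays. With the replicate number as a block, 0, 1 and 9 genes were called in the 3 comparisons (0 lower in meniscus than in cartilage, 1 higher in meniscus than in ligament, 9 lower in ligament than in cartilage, the last beside 8.49% of all named genes) and 5 by the F test; over all named genes the block left 3 higher and 10 lower in meniscus against cartilage, where 30 and 25 were reported. Deviations of same-numbered arrays correlated at -0.030 to 0.15 over 9 pairs, and those of arrays with other numbers at -0.13 to 0.061. Between meniscus and cartilage the same-numbered arrays correlated at 0.080, 0.15 and 0.021, and those with other numbers at -0.13 to 0.038. Whether equal numbers mark paired samples cannot be told from these small, overlapping values. The causes of these shifts were not tested. Genes near background, chiefly in ligament, are limited by signal over background.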
